A study of Homo sapiens with 13 samples.

Results

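Luminal breast genes, 6 in number, were examined for nearby binding of the coactivators YAP and TAZ and of the DNA-binding proteins TEAD4 and JUN. The cells were MDA-MB-231, an established human breast cancer cell line of mesenchymal, basal-like character that lacks the estrogen receptor. A peak was taken as a member when its summit lay within 100 kb of the hg19 start of 1 of the 6 genes: ESR1 (chromosome 6, 152011631, plus strand), GATA3 (chromosome 10, 8096667, plus), FOXA1 (chromosome 14, 38064325, minus), GRHL2 (chromosome 8, 102504668, plus), CDH1 (chromosome 16, 68771195, plus) and ELF3 (chromosome 1, 201979690, plus). Of the 50467 peaks of the 4 deposited lists, 60 were members. They comprised 10 of 7709 YAP peaks, 12 of 9798 TAZ peaks, 8 of 8406 TEAD4 peaks and 30 of 24554 JUN peaks. The study made 2 chromatin immunoprecipitation sequencing (ChIP-seq) libraries per factor, with 2 rabbit IgG and 3 mouse IgG control libraries, all from this 1 line grown in DMEM:F12 with 10% serum, with no treatment named. One peak list per factor was deposited for both replicates together, so the values below carry no replicate spread, no test was made, and the read depth is unknown. No RNA was measured, so whether these genes are silent or expressed in the cells was not analysed here.

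YAP and TAZ (encoded by WWTR1) are the coactivators held in check by the Hippo pathway. They do not bind DNA themselves but are recruited by TEAD proteins such as TEAD4, often at distal enhancers, where JUN, a subunit of AP-1, also binds. ESR1 encodes estrogen receptor alpha, FOXA1 a pioneer forkhead factor that opens chromatin for it, and GATA3 a zinc-finger factor that maintains luminal identity. GRHL2 and ELF3 encode epithelial transcription factors of the grainyhead-like and ETS families, and CDH1 encodes E-cadherin, the adhesion protein of epithelial junctions. In cells that have undergone epithelial-mesenchymal transition, such epithelial genes are typically repressed.

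No listed peak lay at any of the 6 starts: 0 of the 60 summits were within 1 kb of a start, and 4 were within 10 kb. The same shares for gene starts in general are not known here, so these counts are not read as particular to the 6 genes. The promoter sequences of ELF3 and FOXA1 are shown because each of these genes has 1 start in the RefSeq promoter table (GRCh38.p14), whereas ESR1 and GATA3 have 6 each. CDH1 and GRHL2 were not matched in the table. The 250 bases before the start are given 5′ to 3′ on the strand of the gene, for ELF3 from chr1:202010337-202010586 (plus strand) and for FOXA1 from chr14:37595250-37595499 (minus strand). Capitals mark the E-box letters CACCTG or their reverse complement, the sequence recognised by SNAI and ZEB repressors of epithelial genes.
ELF3: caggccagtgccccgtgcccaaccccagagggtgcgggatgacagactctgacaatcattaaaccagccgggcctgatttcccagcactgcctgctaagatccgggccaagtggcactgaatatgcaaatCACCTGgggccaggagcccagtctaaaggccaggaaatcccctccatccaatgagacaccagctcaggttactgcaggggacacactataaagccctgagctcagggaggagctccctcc
FOXA1: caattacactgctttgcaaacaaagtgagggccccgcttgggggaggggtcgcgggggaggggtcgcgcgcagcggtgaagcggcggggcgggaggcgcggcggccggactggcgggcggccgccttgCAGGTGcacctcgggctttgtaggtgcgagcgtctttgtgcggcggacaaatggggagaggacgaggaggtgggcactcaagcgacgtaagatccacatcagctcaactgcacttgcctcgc
Each held 1 E-box match, its first base 120 bases before the start in ELF3 and 122 in FOXA1. On both strands, neither held the TEAD letters GGAATG or the AP-1 letters TGANTCA. Over all 14 listed starts of the 4 matched genes, the TEAD letters occurred at 1 start of ESR1 and 1 of GATA3, the AP-1 letters at 1 other start of GATA3, and the E-box only at the starts of ELF3 and FOXA1. Among 35116 promoters of the table the same 250 bases held the TEAD letters in 11.9%, the AP-1 letters in 6.57% and the E-box in 17.5%. None of the 3 motifs contains another. A match is not a bound site, and the absence of a match concerns only this window.

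Within 100 kb, JUN was the only factor listed at ESR1 and FOXA1, and the other 4 genes had every factor. ESR1 and FOXA1 had no listed YAP, TAZ or TEAD4 peak within 100 kb, and their only peaks were 2 and 1 of JUN. GATA3, GRHL2, CDH1 and ELF3 each had peaks of all 4 lists. YAP, TAZ and TEAD4 were therefore each present at 4 of the 6 genes, and JUN at 6 of 6. With each list shortened to its 7709 most enriched peaks, JUN was present at 4 genes, and ESR1 and FOXA1 had no peak of any factor. For comparison, the genome was divided into 14589 tiles of 200 kb, the width of a gene window. A YAP summit lay in 31.2% of tiles, a TAZ summit in 35.5%, a TEAD4 summit in 32.6% and a JUN summit in 56.8%. Summits of all 4 lists fell in 24.7% of tiles, against 4 of the 6 windows. JUN without the other 3 was found in 2 of the 6 windows and in 19.7% of tiles. Tiles are not centred on gene starts, and no hg19 annotation was used here, so the corresponding share for gene starts in general is not known.

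**Figure D1:**
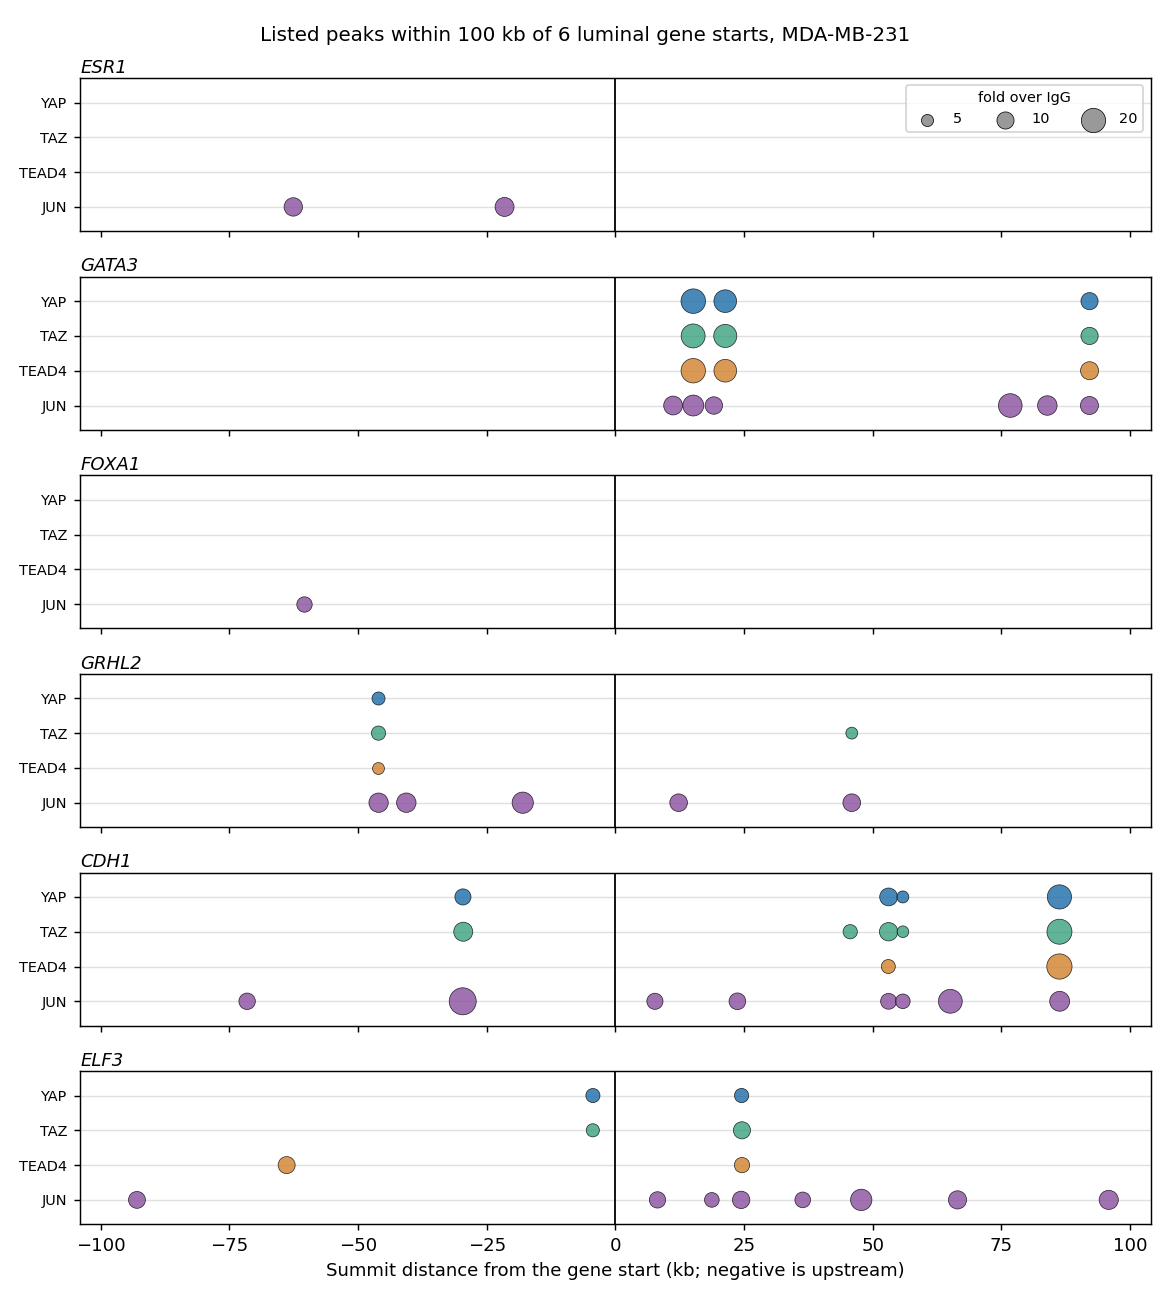
Listed peaks of YAP, TAZ, TEAD4 and JUN (rows) at the 6 genes (panels), by distance of the summit from the gene start in kb, with upstream to the left; the area of a circle is proportional to the authors' fold enrichment over IgG. ESR1 and FOXA1 hold JUN circles only, all GATA3 peaks lie downstream, and the largest circles are at GATA3 and CDH1.

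The windows also differed in how many peaks they held. CDH1 had 4 YAP, 5 TAZ, 2 TEAD4 and 8 JUN peaks. ELF3 had 2, 2, 2 and 8 in the same order, GATA3 3, 3, 3 and 6, and GRHL2 1, 2, 1 and 5. Tiles held on average 0.527 YAP, 0.669 TAZ, 0.574 TEAD4 and 1.68 JUN summits. At least 4 YAP summits, the number at CDH1, were found in 2.39% of tiles, at least 5 TAZ summits in 1.93% and at least 2 TEAD4 summits in 13.5%. At least 2 summits, the number at ELF3, were found in 12.0% of tiles for YAP, 16.0% for TAZ and 13.5% for TEAD4. The 3 YAP, 3 TAZ, 3 TEAD4 and 6 JUN summits of GATA3 were reached in 5.31%, 7.66%, 6.01% and 7.62% of tiles. For GRHL2, at least 2 TAZ summits were found in 16.0% of tiles and at least 5 JUN summits in 11.3%. At least 8 JUN summits, the number at CDH1 and at ELF3, were found in 3.18% of tiles. GRHL2 was the least occupied of the 4 by YAP and TEAD4, and at least 1 summit of each is at the tile shares given above. Of the 60 members, 43 lay downstream of the start and 17 upstream. A shared site counts once per factor in this split, and all GATA3 members are downstream. No share for gene starts in general was available, so the split is not read as a trait of the 6 genes. Whether a downstream site lies in an exon, an intron or beyond the gene was not determined on hg19.

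**Figure D2:**
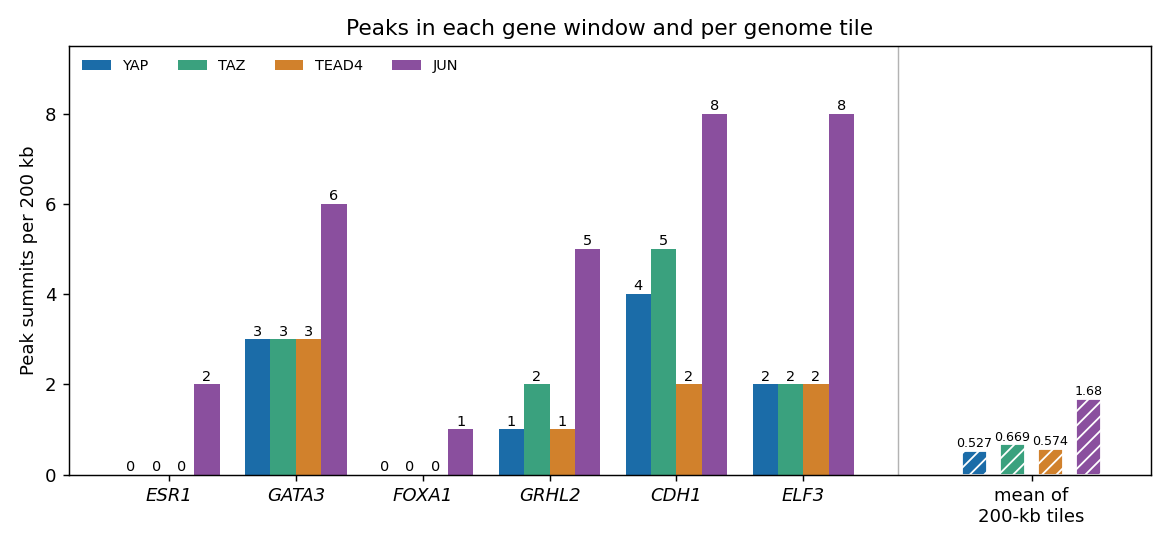
Number of peak summits of each factor in the 200-kb window of each gene (solid bars, with the count above) and the mean number per 200-kb tile of the genome (hatched bars). CDH1 and ELF3 have 8 JUN peaks each, against a tile mean of 1.68, and ESR1 and FOXA1 have 0 YAP, TAZ and TEAD4 peaks.

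At ESR1, both JUN peaks were upstream and of middling strength. One lay 62.6 kb upstream (chr6:151948803-151949662) with 11.6-fold enrichment over IgG, rank 12630 of 24554. The other lay 21.5 kb upstream (chr6:151989729-151990625) with 12.3-fold enrichment, rank 11087. Enrichments here and below are those the authors deposited for each peak, and are read only within a list. The nearest YAP, TAZ and TEAD4 summits were a shared site about 244 kb upstream, where YAP ranked 5105, TAZ 6622 and TEAD4 1303. Downstream the next listed summit was 395 kb away for JUN, 1006 kb for TEAD4 and 1262 kb for both YAP and TAZ. The stretch without YAP, TAZ and TEAD4 peaks thus covers more than the window. ESR1 has several promoters, and the window is centred on 1 of them, so upstream and downstream refer to that start alone. Whether the JUN peaks also lie upstream of the other starts was not determined. RefSeq gives the gene a span of 473 kb on GRCh38.p14, with CCDC170 as the upstream and SYNE1 as the downstream coding neighbour.

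FOXA1 had the weakest occupancy of the 6. Its single peak, of JUN, lay 60.5 kb upstream (chr14:38124624-38125044), on the side of the neighbouring gene TTC6, with 8.09-fold enrichment. It ranked 21969 of 24554, in the weakest part of the JUN list. The nearest TAZ and TEAD4 summits were 473 kb downstream and the nearest YAP summit was 696 kb upstream. The number in each peak name ascends along every chromosome in 100% of neighbouring pairs of all 4 lists. If these numbers count all candidate peaks, gaps give an upper limit on candidates that were not listed. Between the listed peaks that flank the FOXA1 window there were at most 15 unlisted YAP, 4 TAZ and 7 TEAD4 candidates. For ESR1 the limits were 10, 15 and 6. These intervals are far wider than the windows, so the numbers inside them may be lower. An unlisted site is one that did not reach the list and is not shown to be unbound.

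GATA3 carried some of the strongest peaks of the YAP, TAZ and TEAD4 lists within 21.4 kb of the start. RefSeq gives the gene a span of 29.9 kb on GRCh38.p14, but GATA3 has 6 listed starts. The span may therefore begin at a start other than that of the window. Whether the sites below lie inside the gene was not determined. At 15.1 kb downstream of the start (chr10:8111367-8112315) YAP was enriched 20.5-fold, TAZ 19.6-fold, TEAD4 20.3-fold and JUN 14.9-fold. These values rank 113 of 7709, 179 of 9798, 105 of 8406 and 6524 of 24554, that is, within the strongest 1.47%, 1.83%, 1.25% and 26.6% of the lists. A YAP peak at least this strong was found in 0.733% of tiles, a TAZ peak in 1.17% and a TEAD4 peak in 0.699%. The 4 summits lay within 25 bp of each other, and the JUN summit was 1 bp from the nearest other.

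A second strong GATA3 site, 21.4 kb downstream (chr10:8117435-8118225), held YAP (17.5-fold, rank 239), TAZ (18.2-fold, rank 243) and TEAD4 (17.5-fold, rank 245) but no listed JUN peak. The 3 summits fell within 9 bp. The nearest JUN summit was 19.1 kb from the start, outside the region, and at most 2 JUN candidates between 19.1 and 76.7 kb went unlisted. By −log10 p instead of enrichment, the 3 peaks fell at 7.02%, 7.27% and 7.80% of their lists, against 3.10%, 2.48% and 2.91% by enrichment. The strongest TEAD4 peak of the gene, at 15.1 kb, moved likewise to 3.43%.

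Farther out, 92.2 kb downstream (chr10:8188508-8189111), all 4 factors shared a moderate site, and their summits fell within 29 bp. YAP was enriched 10.1-fold there, TAZ 10.2-fold, and TEAD4 and JUN 11.1-fold each. JUN had 4 further peaks at GATA3 without the other factors. The nearest to the start lay 11.2 kb downstream (12.1-fold, rank 11469), and the most enriched of all 6 lay 76.7 kb downstream (19.1-fold, rank 2496). The JUN peak that ranked highest at GATA3 was therefore not one that YAP, TAZ or TEAD4 shared. Upstream of the start, no peak of any list lay within 236 kb. The upstream coding neighbour is TAF3 and the downstream one CELF2.

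CDH1 had a site as strong as that of GATA3. At 86.3 kb downstream of the start (chr16:68857075-68857894) TEAD4 was enriched 21.7-fold, TAZ 21.3-fold, YAP 19.9-fold and JUN 13.4-fold. TEAD4 ranked 69 of 8406, TAZ 114 of 9798, YAP 132 of 7709 and JUN 8830 of 24554. A TEAD4 peak at least this strong was present in 0.452% of tiles, TAZ in 0.747% and YAP in 0.857%. By −log10 p the TEAD4 peak stood at 0.333% of its list instead of 0.821%, the TAZ peak at 0.653% instead of 1.16% and the YAP peak at 1.02% instead of 1.71%. The YAP, TAZ and TEAD4 summits lay within 8 bp, and the JUN summit 40 bp from the nearest of them. The distance of 86.3 kb is shorter than the span of 98.2 kb that RefSeq gives CDH1 on GRCh38.p14. TANGO6 is the downstream coding neighbour.

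The strongest JUN peak of all 6 genes was at CDH1, on the other side of the start. At 29.6 kb upstream (chr16:68741006-68742280), toward the neighbouring cadherin gene CDH3, JUN was enriched 24.9-fold (rank 468, the strongest 1.91% of its list). TAZ was enriched 12.3-fold (rank 1030) and YAP 8.88-fold (rank 2399) at the same site, and TEAD4 was not listed there. At most 5 TEAD4 candidates between 285 kb upstream and 53.0 kb downstream went unlisted. JUN ranked highest in its list among the 3 factors listed at the upstream site, and lowest of the 4 at 86.3 kb downstream, while TAZ ranked above YAP at both. These are ranks within separate lists of unequal length, and the difference was not tested.

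Between these sites, CDH1 had a region of all 4 factors 53.1 kb downstream (chr16:68823953-68824970). YAP was enriched 10.9-fold there, TAZ 11.5-fold, TEAD4 6.71-fold and JUN 8.61-fold. The summits fell within 59 bp. A weak neighbour 55.9 kb downstream held YAP (4.91-fold), TAZ (4.65-fold) and JUN (7.30-fold), each in the weakest 10% of its list by enrichment, without TEAD4. A TAZ peak 45.6 kb downstream (6.93-fold, rank 4937) overlapped no other list. Between the listed peaks flanking it, at most 1 YAP, 5 TEAD4 and 2 JUN candidates went unlisted. JUN had 4 peaks of its own at CDH1. The nearest to the start was 7.69 kb downstream (8.89-fold, rank 20000), and the most enriched of the 4 was 65.1 kb downstream (19.4-fold, rank 2329).

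**Figure D3:**
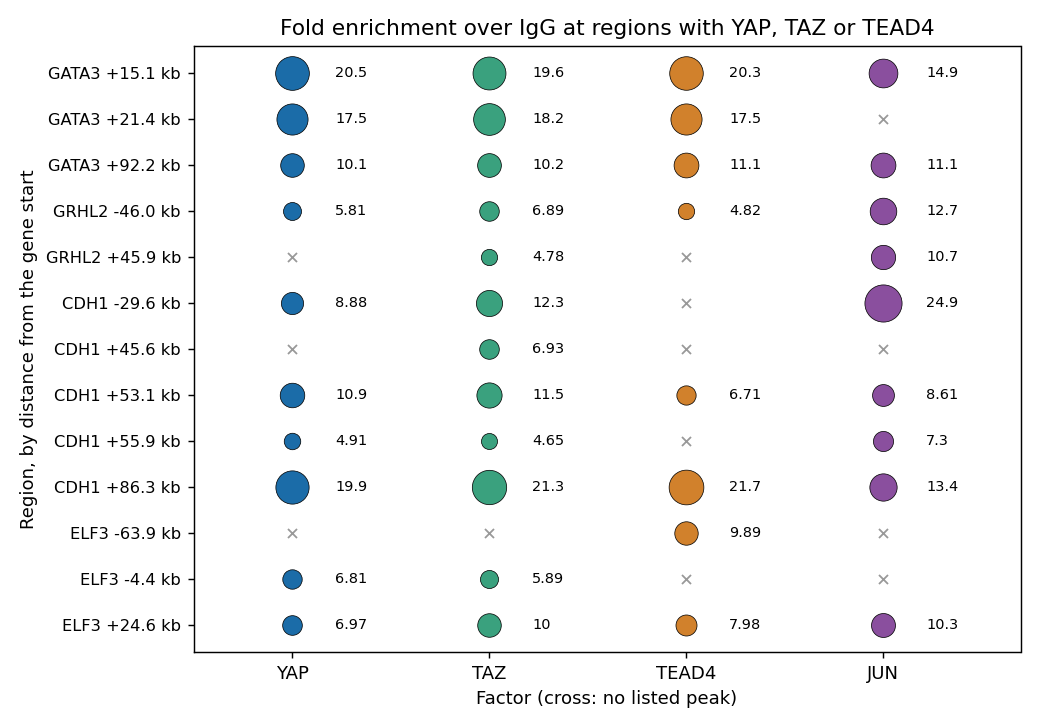
The 13 merged regions near GATA3, GRHL2, CDH1 and ELF3 that held YAP, TAZ or TEAD4, with the fold enrichment over IgG printed beside each circle (area proportional to it) and a cross where a factor had no listed peak. YAP, TAZ and TEAD4 reach about 20-fold at GATA3 +15.1 kb and CDH1 +86.3 kb, and JUN is highest at CDH1 −29.6 kb, where TEAD4 has a cross.

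ELF3 was the gene with the peaks nearest to its start for YAP and TAZ. A site 4.37 kb upstream (chr1:201975009-201975483) held YAP (6.81-fold, rank 4607) and TAZ (5.89-fold, rank 6985), with summits 14 bp apart, on the side of the neighbouring gene RNPEP. Neither TEAD4 nor JUN was listed there. Up to 6 unlisted TEAD4 candidates lay between 63.9 kb upstream and 24.6 kb downstream, and up to 11 of JUN between 93.0 kb upstream and 8.19 kb downstream. Both peaks rank in the weaker part of their lists by enrichment, at 59.8% for YAP and 71.3% for TAZ. By −log10 p they stood at 45.3% and 59.9%, which puts YAP above the middle of its list. This was 1 of only 307 regions with YAP and TAZ alone among the 28100 merged regions of all lists. TEAD4 had a peak without any other listed factor 63.9 kb upstream (chr1:201915462-201916021, 9.89-fold, rank 1935). Between the listed peaks flanking it, up to 7 YAP, 8 TAZ and 11 JUN candidates went unlisted.

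All 4 factors met at ELF3 24.6 kb downstream of the start (chr1:202003431-202004605), beyond the 6.60 kb that RefSeq gives the gene on GRCh38.p14. YAP was enriched 6.97-fold, TAZ 10.0-fold, TEAD4 7.98-fold and JUN 10.3-fold. Summits were spread over 167 bp, the widest of the 6 regions with all factors, and the JUN summit was 89 bp from the nearest other. The remaining 7 JUN peaks at ELF3 overlapped no other list. They included the nearest to the start, 8.19 kb downstream (9.10-fold, rank 19403), and the most enriched, 47.8 kb downstream (15.5-fold, rank 5783).

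At GRHL2, JUN was alone at 3 of 5 merged regions, against 7 of 10 at ELF3 and 58% of all 28100 regions. The 5 JUN peaks of GRHL2 lay 46.0, 40.6 and 18.0 kb upstream and 12.3 and 45.9 kb downstream. Their enrichments were 12.7, 12.9, 15.4, 10.6 and 10.7. The peak 40.6 kb upstream ranked at 40.3% of the list by enrichment and at 8.85% by −log10 p. It was 1605 bp wide, against a median of 730 bp in the JUN list. YAP, TAZ and TEAD4 joined JUN only 46.0 kb upstream (chr8:102458201-102458994). YAP (5.81-fold, rank 6195 of 7709) and TEAD4 (4.82-fold, rank 7957 of 8406) were low in their lists there, and TAZ (6.89-fold, rank 4997 of 9798) was near the middle of its own. The 4 summits fell within 76 bp. TAZ was also found 45.9 kb downstream (4.78-fold, rank 9083), 4 bp from a JUN summit, with neither YAP nor TEAD4. The next YAP and TEAD4 summits downstream of the window were both 1297 kb from the start. Between these and the listed peaks of the shared upstream site, up to 14 YAP and 15 TEAD4 candidates went unlisted.

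**Figure D4:**
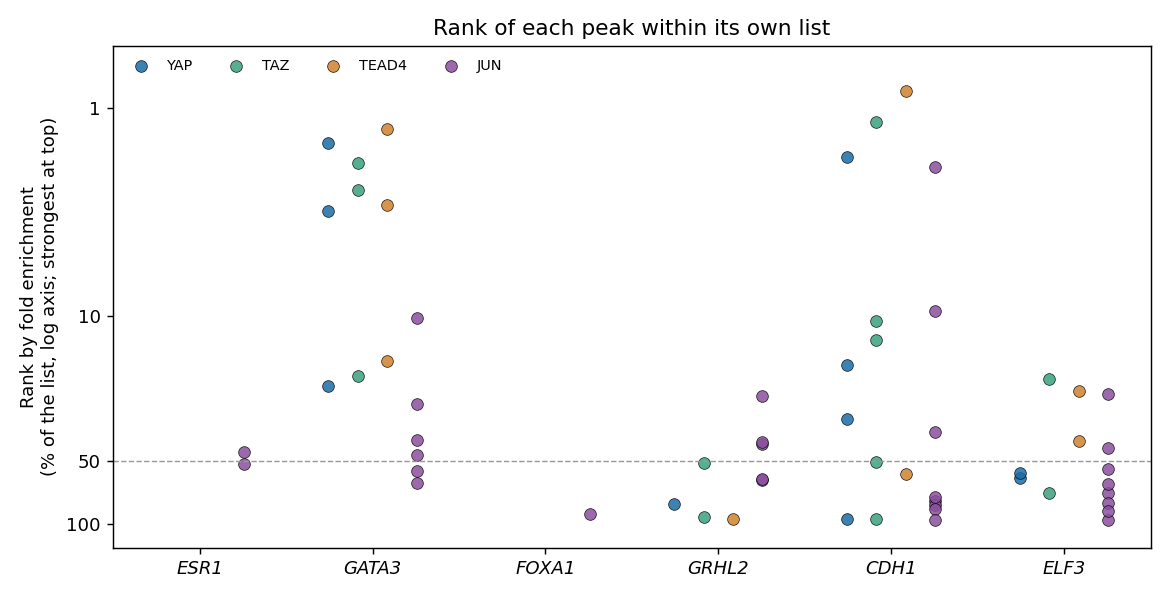
Rank of each of the 60 peaks by fold enrichment within its own list, in percent of the list on a log axis with the strongest at the top, by gene and factor; the dashed line marks the middle of a list. YAP, TAZ and TEAD4 peaks in the strongest 10% occur at GATA3 and CDH1 only, while those at GRHL2 lie below the middle.

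Merging overlapping peaks gave 34 regions with a summit in a window. JUN was alone at 21 of them (61.8%, against 58.0% of all 28100 regions), and 6 held all 4 factors (17.6%, against 15.2%). Both shares are near those of the whole series. With a reciprocal overlap of 50%, 4 of the 6 regions still held all factors, and with peaks narrowed to 200 bp 6 did. The share over all regions was not determined under these rules. All 10 YAP members overlapped a TAZ peak, as did 92.4% of the YAP list. TEAD4 was present at 7 of the 10 YAP members (74.6% of the list) and JUN at 8 of 10 (77.0% of the list). Of the 30 JUN members, 8 overlapped YAP (23.9% of the list), 9 TAZ (29.5%) and 6 TEAD4 (23.1%). The 6 regions with all factors had summit spreads of 25 to 167 bp, and the 4129 such regions with 1 peak of each list had a median spread of 47 bp (quartiles 29 and 77).

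YAP, TAZ and TEAD4 members had higher medians than their lists, and JUN members did not. The median enrichment of the member peaks was 9.46-fold for YAP, 10.1-fold for TAZ and 10.5-fold for TEAD4, against 7.35, 6.96 and 7.20 over the full lists. For JUN the member median was 11.2-fold against 11.7-fold over the list. The strongest 10% of each list by enrichment held 3 of 10 YAP, 3 of 12 TAZ, 3 of 8 TEAD4 and 2 of 30 JUN members. All 9 of the YAP, TAZ and TEAD4 peaks among these came from the 3 sites at GATA3 15.1 and 21.4 kb and CDH1 86.3 kb downstream, so the medians rest on a few sites. At the edges of the windows, the members just inside were the shared sites of CDH1 at 86.3 kb and GATA3 at 92.2 kb and the JUN peaks of ELF3 at 93.0 kb upstream and 95.9 kb downstream (9.74 and 12.6-fold). Just outside were JUN peaks 103 kb (7.42-fold) and 116 kb (9.64-fold) upstream of GRHL2 and 114 kb upstream of ELF3 (9.93-fold), a shared YAP and TAZ site 113 kb upstream of ELF3 (4.90 and 4.52-fold) and a TAZ and JUN site 116 kb downstream of GRHL2 (6.94 and 9.84-fold).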

How the data were processed

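ChIP-seq libraries of MDA-MB-231 were grouped by the factor in their titles. Per the labels, YAP and TAZ (rabbit IgG 1 and 2), TEAD4 (mouse IgG 3 and 4) and JUN (mouse IgG 3 and 5) were called against pooled IgG within the IDR (irreproducible discovery rate) framework, with a value of 0.01. The build was hg19, and the tools were MACS2 2.0.10, Bowtie 0.12.7, CASAVA and SAMtools, per the submitters' processing notes. The authors' deposited peaks carry a fold enrichment over IgG (a ratio) and a −log10 p-value. YAP and TAZ share their IgG controls, and differ in IgG from TEAD4 and JUN. Antibody and control cannot be told apart in comparisons between these lists.

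Summits were taken as peak start plus offset, 1-based. Ranks are by fold enrichment within a list (rank 1 is the strongest). Peaks overlapping by at least 1 bp were merged. Tiles of 200 kb were complete tiles within the span of the lists on each chromosome. Python 3.11.15, pandas 2.3.3 and scipy 1.17.1 were used, and the counting steps were tested on simulated data. The members and lists were chosen with earlier results of these data known. All 6 genes are described; at most 5 peaks per gene and list are named, otherwise the nearest and the most enriched, and all regions with 4 factors. JUN peaks at GATA3, CDH1 and ELF3 that were not named this way are given as counts, apart from those at shared regions. Sequences and neighbouring genes come from RefSeq on GRCh38.p14; no position was converted between builds. Other luminal and basal genes were not analysed here, since no hg19 annotation was used.

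Alternatives were windows of 50 and 200 kb, lists cut to equal length (7709 peaks), the stronger 50% of every list, membership by any overlap with the window, a reciprocal overlap of 50%, peaks narrowed to 200 bp, tiles offset by 100 kb and ranks by −log10 p.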

Additional observations from a re-analysis of the deposited data

How the results depend on the processing

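Of 50 alternative counts and shares, 39 stayed within 1.5 times the reported count or within the exact 95% binomial interval of the reported share. This limit is loose for counts so small. It kept JUN at 4 genes instead of 6 (equal lists) and 8 TAZ peaks instead of 12 (50-kb windows). It also kept 4 regions with all factors instead of 6 (reciprocal overlap of 50%). Membership by any overlap with the window changed no count. With 50-kb windows there were 6 YAP, 4 TEAD4 and 17 JUN peaks, and 3 regions held all 4 factors. TEAD4 was then present at 3 genes, with none at CDH1, and JUN at 5, with none at FOXA1. With the stronger 50% of each list there were 6 YAP, 7 TAZ and 13 JUN peaks, YAP was present at 2 of the 6 genes, TAZ and TEAD4 at 3 and JUN at 5, and 2 regions held all factors. With lists of equal length JUN had 6 peaks at 4 genes, TEAD4 was present at 3 genes and 1 region held all factors. ESR1 and FOXA1 then had no peak of any list. Shortening affects JUN most, since its list is the longest. ESR1 and FOXA1 gained no YAP, TAZ or TEAD4 peak with 200-kb windows, where each of these factors was still present at 4 genes. Ranked by −log10 p, 30 of the 60 members stood higher in their list and 30 lower or equal, and 8 crossed the middle of the list. The cause was not tested. A binomial interval around the rank was exceeded by 58, but a rank is not a sampled share. The interval therefore does not measure the uncertainty of a rank, and small shifts exceed it. The ESR1 JUN peak 62.6 kb upstream counted as moved at 50.2% against 51.4%. No paired analysis was possible because each factor has 1 list with no values per replicate. For the same reason no replicate could be left out. What depth limits is unknown here.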
